A study of Mus musculus with 12 samples.

Results

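The Zfp genes of the mouse encode zinc finger proteins and are told apart by a number. The genes described here are the protein-coding genes named Zfp plus a number, Zfp36 left out, selected on their mean level, which had to be 5 CPM or more over all 12 libraries (CPM is the count of a gene per 1000000 counts of its library). They number 201 of the 364 protein-coding Zfp genes and of the 46078 genes in the table. Because they were chosen by the mean level over all libraries, levels are given as a description, while the differences between groups were not used by the rule. Zfp36, which is a CCCH protein that binds mRNA, had a mean of 20.1 CPM. Just inside the threshold were Zfp995 at 5.04 CPM, Zfp953 at 5.25 and Zfp959 at 5.35. Just outside it were Zfp605 at 4.86 CPM, Zfp112 at 4.71 and Zfp595 at 4.54.

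The libraries came from tumours of wild-type BALB/c mice, grown from 300000 cells of the 4T1 line, a mouse mammary carcinoma that here carried firefly luciferase, placed in mammary fat pad number 4. From day 14 the mice received vehicle, MBQ-167 at 100 mg/kg 5 times a week for 2 weeks, paclitaxel at 5 mg/kg 1 time a week, or both drugs, and the tumours were taken on day 28. MBQ-167 blocks the GTPases Rac and Cdc42, which steer the actin cytoskeleton, and paclitaxel stabilises microtubules. Each of the 4 groups had 3 libraries. The labels do not say that the 3 libraries are 3 mice, so all p-values rest on the spread among libraries alone. Cells were injected on 2 occasions that the labels do not tie to libraries.

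Most Zfp proteins carry C2H2 fingers, in which paired cysteines and histidines hold a zinc ion and the helix between them reads DNA, and fingers in a row are joined by a short conserved linker. Many also carry a KRAB domain, which recruits Trim28 and the methyltransferase Setdb1 to silence chromatin, above all at retrotransposons. KRAB zinc finger genes lie in clusters of related copies. A smaller set of Zfp proteins works elsewhere, in ubiquitin and SUMO transfer, RNA binding, mitosis or ribosome assembly.

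The range of base composition among these genes can be seen in the fingers themselves. For the 3 Zfp genes of lowest and the 3 of highest transcript GC content that hold a finger with the standard linker in 1 exon, the coding strand of the first such finger and its linker is printed below, 5′ to 3′, with the codons of the paired cysteines and histidines in capitals. They lie at chr17:22375417-22375494 (plus strand, Zfp758), chr17:22851541-22851618 (minus, Zfp945), chr4:147755514-147755591 (minus, Zfp984), chr7:5030071-5030148 (plus, Zfp865), chr5:143255075-143255152 (minus, Zfp316) and chr5:31200419-31200496 (minus, Zfp513) of GRCm38, all in coding exons of GENCODE vM21.
Zfp758: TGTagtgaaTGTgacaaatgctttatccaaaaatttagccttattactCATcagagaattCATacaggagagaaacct
Zfp945: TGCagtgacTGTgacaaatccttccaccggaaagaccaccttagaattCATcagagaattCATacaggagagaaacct
Zfp984: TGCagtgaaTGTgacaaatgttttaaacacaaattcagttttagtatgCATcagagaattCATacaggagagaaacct
Zfp865: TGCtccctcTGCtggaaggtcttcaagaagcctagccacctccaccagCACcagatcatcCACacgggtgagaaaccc
Zfp316: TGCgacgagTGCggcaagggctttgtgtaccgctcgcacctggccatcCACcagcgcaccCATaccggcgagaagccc
Zfp513: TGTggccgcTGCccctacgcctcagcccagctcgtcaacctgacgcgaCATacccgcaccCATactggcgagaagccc
The cysteine and histidine codons are TGT or TGC and CAT or CAC, so the same finger can be written with either base at the third codon position. In the 26 codons of each stretch that position was G or C in 6 for Zfp758, 11 for Zfp945 and 7 for Zfp984. It was G or C in 23 for Zfp865, 24 for Zfp316 and 20 for Zfp513. In the capitalised codons alone it was G or C in 0 for Zfp758 and in 1 each for Zfp945 and Zfp984. There it was G or C in 4 for Zfp865, 3 for Zfp316 and 1 for Zfp513. The capitalised codons alone thus did not separate all low-GC from all high-GC genes.

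Transcript GC content, the mean over the annotated transcripts of a gene, ran from 35.7% to 63.5% among the 201 Zfp genes, with a median of 47.2%. The 10208 other protein-coding genes of 5 CPM or more had a median of 50.8%. GC content at the third codon position had a median of 36.8% in the 67 Zfp genes of lowest transcript GC content, 49.4% in the middle 67 and 66.0% in the 67 of highest. These 3 groups, separated at 44.6% and 50.9%, are used throughout. Coding sequence had a median GC content of 48.2%, and 3′ untranslated regions one of 40.8% in the 196 genes with such an annotation.

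The proteins held a median of 10 C2H2 motifs and up to 36. The motif, 2 cysteines and 2 histidines at standard spacing, had no match in 4 proteins, Zfp703 and, named here after their values were seen, Zfp330, Zfp503 and Zfp839. A sequence pattern of the KRAB box was found in 74 proteins and not in the other 127. A protein without a match to the pattern can still hold a divergent domain. The genes with the pattern had a median GC content of 44.6%, and those without it one of 50.4%.

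Levels ran from 5.04 to 204 CPM with a median of 15.9. Zfp106, a large RNA-binding protein that motor neurons need, was the highest, followed by Zfp207, Zfp292, Zfp91 and Zfp652. Divided by mean transcript length, Zfp106 had 91.3 CPM per kilobase and Zfp207 64.1, while Zfp292, the longest transcript of these 5, had 11.9. The levels given below for single libraries are CPM scaled to the TMM library size of edgeR.

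The total count per library was 11540557 to 17001562, with 52.7% to 71.5% of it in protein-coding genes and 17.1% to 37.5% in a ribosomal locus on chromosome 17. The Zfp genes together took 0.770% ± 0.0252 (SD, n = 3) of the protein-coding counts in vehicle libraries, 0.858% ± 0.0297 with MBQ-167, 0.954% ± 0.0368 with paclitaxel and 0.926% ± 0.0209 with the combination. The vehicle range, 0.747% to 0.797%, did not overlap the range of any drug group. In CPM scaled to the TMM library size, the Zfp genes summed to 4908 ± 261 in vehicle and 5077 ± 83.2 with MBQ-167. On this scale the MBQ-167 range, 4990 to 5155, lay inside that of vehicle, 4655 to 5176. The TMM-scaled sums with paclitaxel, 5547 ± 201, and with the combination, 5420 ± 96.6, were above the vehicle range in every library. The mean TMM factor, by which the total count is multiplied, was 0.876 in vehicle and 0.996 with MBQ-167. Sums per unscaled total count therefore differ from these. In bulk tumour, fewer cells of a type and less RNA per cell cannot be told apart.

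More Zfp genes passed the test with paclitaxel than with the other treatments. Of the 201 genes, 36 rose and 1 fell with paclitaxel against vehicle at an adjusted p under 0.05 (edgeR quasi-likelihood test, Benjamini-Hochberg over 18252 genes). Among all genes tested, 3.17% rose and 2.49% fell, against 17.9% and 0.498% of the Zfp genes. The median log2 fold change of the Zfp genes was 0.18 against -0.00 for all genes, and 136 of 201 values lay above 0. The libraries of the 2 groups did not overlap for 71 Zfp genes that were higher and 14 that were lower, where 13.2% and 12.1% of all genes did so in each direction. At an unadjusted p under 0.05, 67 Zfp genes were higher and 10 lower (11.4% and 11.2% of all genes). DESeq2 passed 45 higher and 4 lower, against 5.36% and 4.81% of the genes to which it gave an adjusted p.

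The change was ordered by GC content. In the lowest-GC group the median was 0.62 and 28 of 67 genes rose. In the middle group it was 0.20 and 7 rose. In the highest-GC group the median was -0.09 and 1 rose. Spearman's correlation of GC content with the log2 fold change was -0.78 across the 201 genes, which share their libraries and any trend of those libraries with base composition. The fitted slope was -0.47 on the log2 scale per 10 percentage points of GC content.

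**Figure D1:**
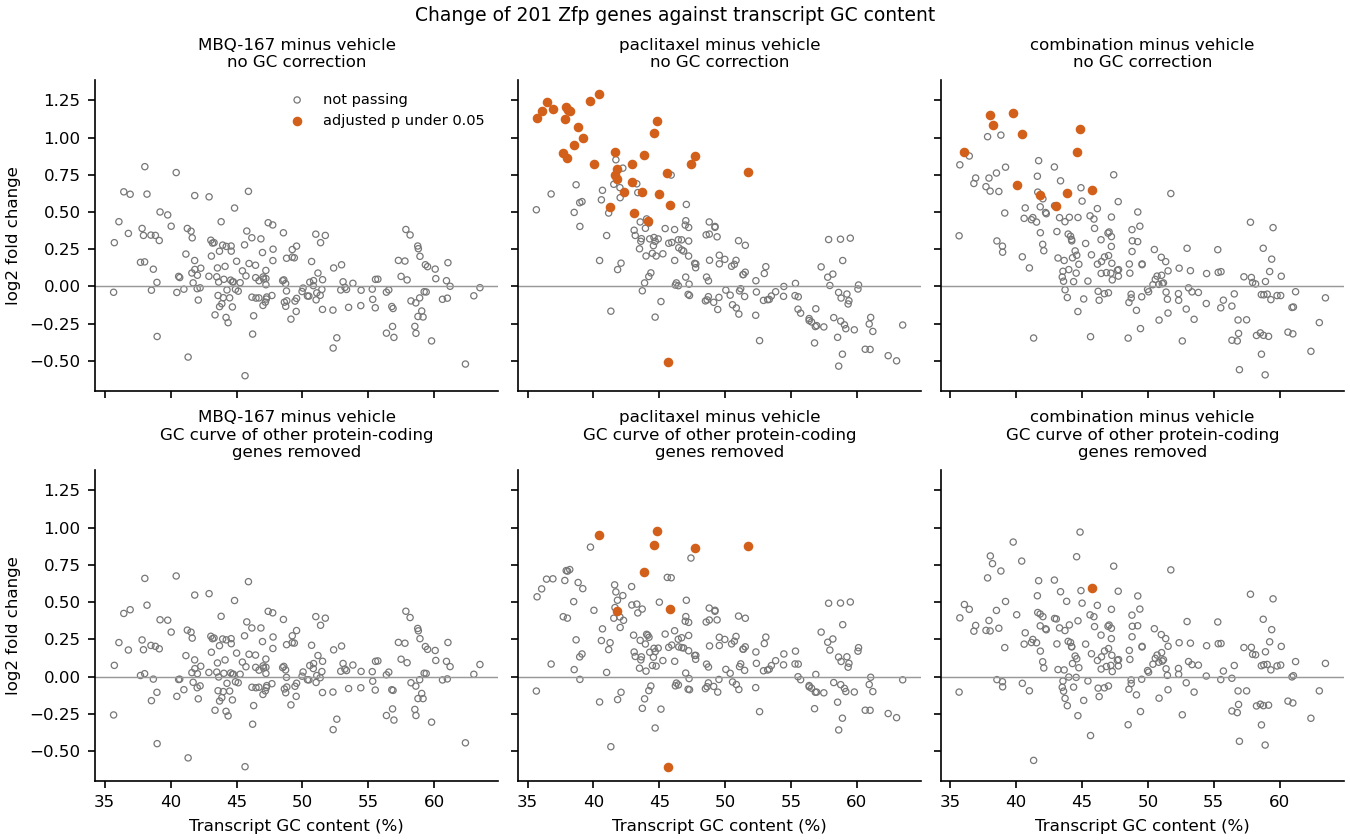
Log2 fold change against vehicle (vertical axis) plotted on transcript GC content in percent (horizontal axis) for 201 Zfp genes, with MBQ-167, paclitaxel and the combination from left to right; filled points passed at an adjusted p under 0.05. The upper panels show the values as fitted, where 36 genes rose and 1 fell with paclitaxel, and the lower panels show them after the curve of other protein-coding genes was removed in each library, where 8 rose and 1 fell.

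Other genes followed GC content too, less steeply. The 10208 other protein-coding genes of 5 CPM or more had a correlation of -0.44 and a slope of -0.27 per 10 percentage points with paclitaxel. Over the GC range of the lowest-GC Zfp group, 1621 such genes had a median of 0.23, and 222 of them rose, against 0.62 for the Zfp genes. Over the middle range 3557 had a median of -0.01, against 0.20 for the Zfp genes. Over the highest range 4957 had a median of -0.17, against -0.09. Below 38% GC, 9 Zfp genes had a median of 1.13 and 49 other genes one of 0.46. From 38% to 41%, 17 Zfp genes had a median of 0.82 and 348 other genes one of 0.36.

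**Figure D2:**
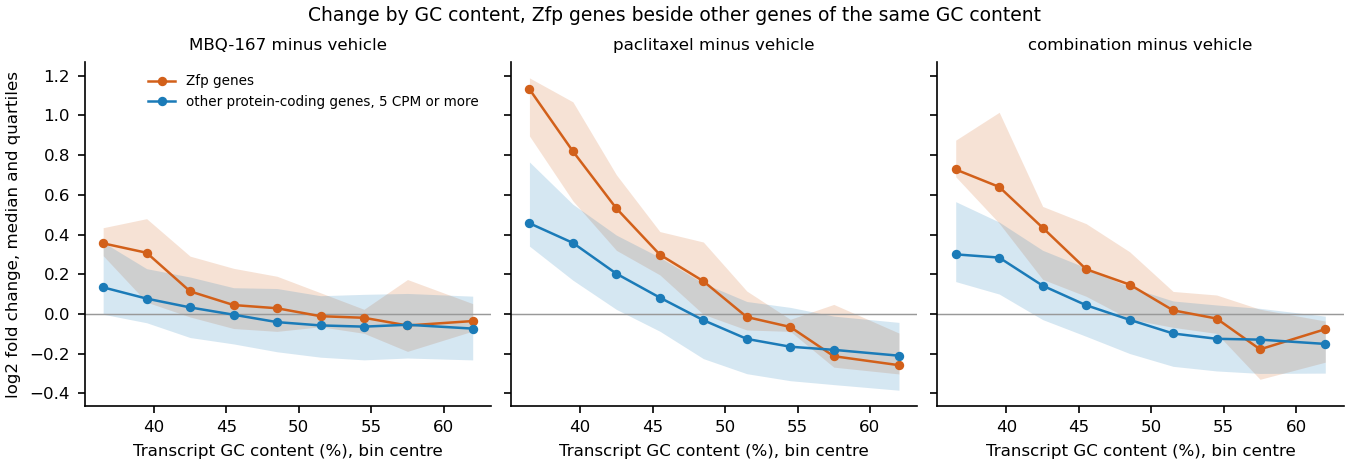
Median log2 fold change against vehicle with its quartiles (shaded) in bins of transcript GC content, for Zfp genes and for other protein-coding genes of 5 CPM or more, 1 panel per drug group. With paclitaxel the Zfp median in the lowest bin was 1.13 and that of other genes 0.46; in the highest bin they were -0.26 and -0.21.

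The trend could be read in each library. The log2 level of each gene was expressed as its deviation from its mean over the 12 libraries, and the slope of this deviation on GC content was taken within a library. Across the Zfp genes the vehicle libraries had slopes of 0.33, 0.28 and 0.12 per 10 percentage points, and those with MBQ-167 alone 0.16, 0.04 and 0.11. With paclitaxel they were -0.26, -0.29 and -0.13, and with the combination -0.07, -0.15 and -0.15. Thus all 6 libraries without paclitaxel had a positive slope and all 6 with it a negative one. The slopes of the other protein-coding genes were flatter than those of the Zfp genes in every library and ran from -0.16 to 0.17. The deviations of 1 gene sum to 0 over the 12 libraries, so the slopes of different libraries are not independent.

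Vehicle library 3 stood apart from the other vehicle libraries in this measure, and paclitaxel library 3 from the other paclitaxel libraries. The lowest-GC Zfp genes had a median deviation of -0.35, -0.41 and -0.14 in vehicle libraries 1 to 3. With paclitaxel these medians were 0.41, 0.31 and 0.18. The highest-GC genes stayed between -0.15 and 0.11 in all of these 6 libraries. Leaving out vehicle library 3 left 38 of the Zfp genes passing with paclitaxel, and leaving out vehicle library 1, paclitaxel library 1 or paclitaxel library 2 left 15, 18 or 12. The rises of Zfp160, Zfp638, Zfp760, Zfp945, Zfp950 and Zfp994 passed in each of these fits and without vehicle library 2 or paclitaxel library 3. For all fits that left out 1 library, the share of all genes passing is not given here. Changes in the number of Zfp genes passing in such fits therefore cannot be read as particular to these genes.

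**Figure D3:**
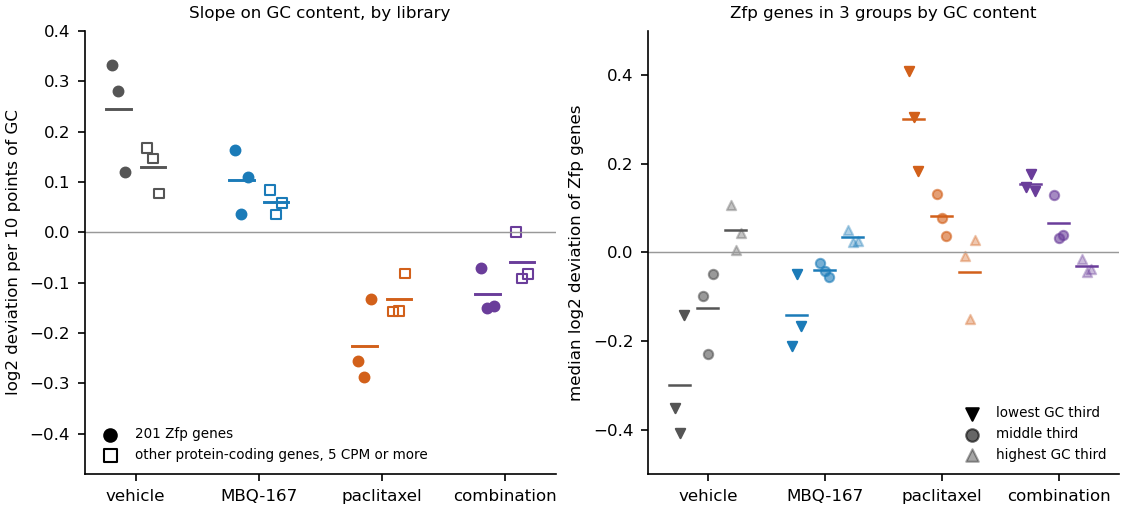
Left, slope of the log2 deviation on GC content per 10 percentage points in each of 12 libraries, for 201 Zfp genes (filled) and other protein-coding genes (open). Right, median log2 deviation of the Zfp genes in 3 groups by GC content. Horizontal bars are group means, and the Zfp slopes ran from 0.12 to 0.33 in vehicle libraries and from -0.29 to -0.13 with paclitaxel.

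Other measures that differ between libraries are given beside this trend. The 19 tested of 20 neutrophil markers summed to 899 to 2192 CPM in vehicle libraries, with 2192 in library 3. With MBQ-167 they summed to 728 to 771 CPM. They summed to 505 to 634 CPM with paclitaxel and to 544 to 590 with the combination. The 6 tested of 7 erythroid markers summed to 258 to 265 CPM in vehicle and to 14.5 to 108 in the 9 drug libraries. No marker of these lists was at 0 in all libraries. Among neutrophil markers the lowest mean over all libraries was that of Elane, at 0.195 CPM. The highest means were those of Padi4, at 233 CPM, Mmp9, at 135, and Lcn2, at 122, so these genes weigh most in the sum. Every vehicle library had a higher neutrophil marker sum than every drug library, so as a covariate this sum cannot be told apart from drug treatment. With the log2 of the neutrophil marker sum as a covariate, the median with paclitaxel was 0.37 and the correlation with GC content was -0.74. In that fit 10 Zfp genes passed. The share of all genes passing in it is not given here, so the lower count cannot be read as particular to the Zfp genes. The share of counts in the ribosomal locus was 34.6% ± 2.95 (SD, n = 3) in vehicle and 25.7% ± 7.72 with paclitaxel, and its part in the trend was not tested.

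Single genes are given next, starting with those of the cluster on chromosome 17. Zfp945, a finger gene of the chromosome 17 cluster (ENSMUSG00000059142, 22846697 to 22867134, minus strand, GC content 36.1%), had the smallest p with paclitaxel. Its levels were 17.7, 19.7 and 24.8 CPM in vehicle libraries and 26.7, 32.5 and 25 with MBQ-167. They were 54.5, 48.2 and 38.3 CPM with paclitaxel and 44, 37.8 and 34.7 with the combination. Every drug library was above every vehicle library. The log2 fold change was 1.18 ± 0.17 (SE) with paclitaxel (edgeR adjusted p = 0.00392) and 0.90 ± 0.17 with the combination (adjusted p = 0.0244). The combination call was lost in 3 of 6 fits that left out 1 library.

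Zfp994, a KRAB finger gene of the same cluster with a GC content of 37.9%, was at 7.18, 5.77 and 6.48 CPM in vehicle and at 15.9, 16 and 12.9 with paclitaxel. The 2 groups did not overlap, and the log2 fold change was 1.2 ± 0.18 (edgeR adjusted p = 0.00457). Zfp760, of the same cluster at 38.2% GC, was at 10.6, 12.4 and 20.1 CPM in vehicle, with library 3 the highest. It was at 36.9, 30.9 and 29.8 CPM with paclitaxel and at 31.8, 30.9 and 28.8 with the combination. Its changes of 1.18 ± 0.20 and 1.08 ± 0.20 both passed (edgeR adjusted p = 0.00703 and 0.0235). The combination call of Zfp760 was lost in 5 of 6 fits that left out 1 library.

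Zfp160, a KRAB gene at the other end of that cluster, had a GC content of 44.8%. It was at 15.4, 17.6 and 16.9 CPM in vehicle, 27.4, 24.7 and 19.8 with MBQ-167, 37.5, 44.5 and 26 with paclitaxel, and 35.2, 38.2 and 30.7 with the combination. All drug libraries lay above the vehicle range. It rose by 1.11 ± 0.19 with paclitaxel and by 1.06 ± 0.19 with the combination (edgeR adjusted p = 0.00678 and 0.02). Its combination call was lost in 3 of 6 fits that left out 1 library.

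Zfp950, a gene with 17 C2H2 motifs on chromosome 19 (61053840 to 61140840, minus strand), overlaps Grk5 on the opposite strand, and since the strandedness of the counts is not given, reads of both cannot be told apart. Its levels were 5.21, 8.86 and 8.58 CPM in vehicle, 10.9, 13.3 and 14.3 with MBQ-167, 19.5, 17.5 and 18.5 with paclitaxel, and 12.9, 15.3 and 17.7 with the combination. The change of 1.29 ± 0.20 with paclitaxel (edgeR adjusted p = 0.00489) was the largest of the 37 that passed. Zfp930, with 12 motifs on chromosome 8, was at 5.44, 5.06 and 7.09 CPM in vehicle and at 12.1, 11.1 and 9.63 with paclitaxel, a rise of 0.90 ± 0.19 (edgeR adjusted p = 0.0163) that did not pass without vehicle library 1, paclitaxel library 1 or paclitaxel library 2.

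**Figure D4:**
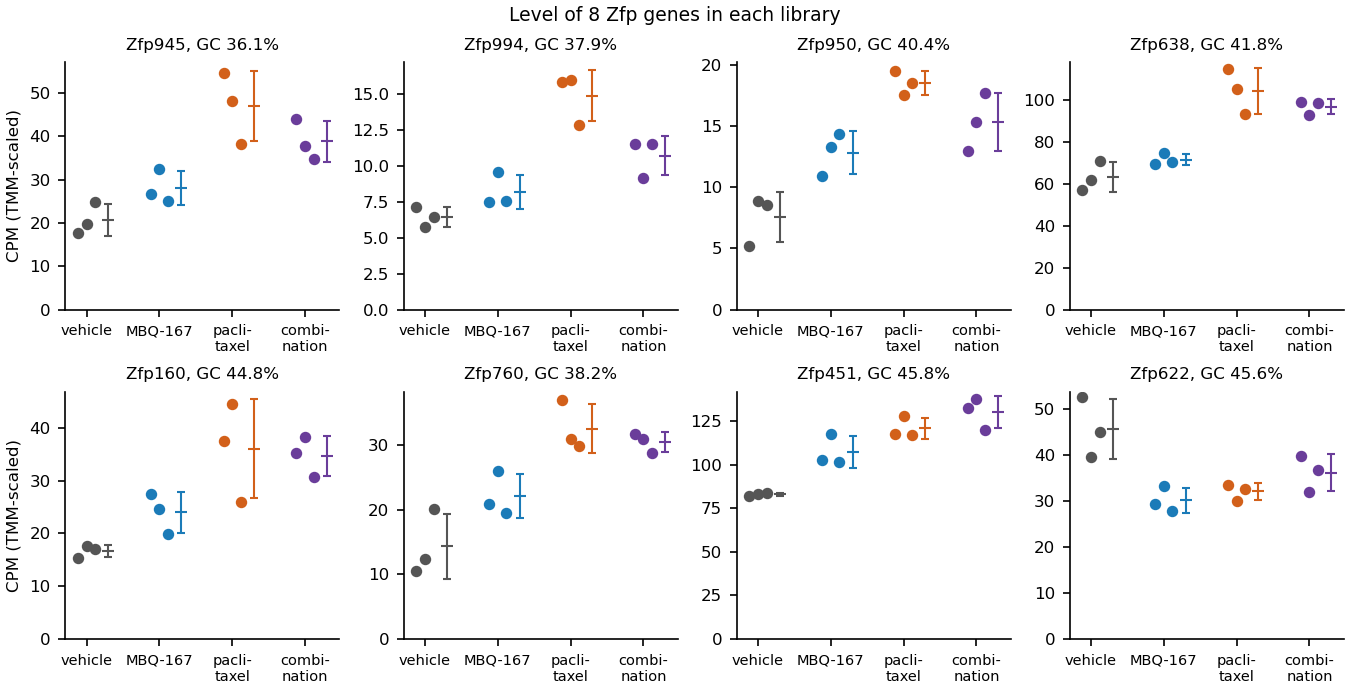
CPM scaled to the TMM library size of 8 Zfp genes in each of 12 libraries, with the group mean and SD (n = 3) beside the points; each panel starts at 0. The vehicle libraries of Zfp945, Zfp994, Zfp950, Zfp638, Zfp160, Zfp760 and Zfp451 lie below all paclitaxel libraries, and those of Zfp622 lie above them.

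Several Zfp proteins with roles outside classical DNA binding also changed. Zfp638, which binds DNA and RNA and recruits the HUSH silencing complex to retroviral DNA, was at 57.2, 61.8 and 71.1 CPM in vehicle and at 69.4, 74.5 and 70.6 with MBQ-167. It was at 115, 105 and 93.1 CPM with paclitaxel and at 98.9, 92.7 and 98.7 with the combination. The 6 libraries with paclitaxel were all above the 6 without it. The changes were 0.72 ± 0.11 and 0.61 ± 0.11 (edgeR adjusted p = 0.00489 and 0.0229). Of these calls, that of the combination was lost in 4 of 6 fits that left out 1 library.

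Zfp451, a SUMO ligase, was at 82.0, 83.3 and 83.8 CPM in vehicle, 103, 118 and 102 with MBQ-167, 118, 128 and 117 with paclitaxel, and 133, 138 and 120 with the combination. It had the smallest p of the Zfp genes with the combination, with a change of 0.65 ± 0.10 (edgeR adjusted p = 0.0139), and rose by 0.54 ± 0.10 with paclitaxel (adjusted p = 0.0107). Zfp207, a kinetochore protein that binds microtubules and loads the checkpoint protein Bub3, was at 116, 110 and 137 CPM in vehicle and at 171, 161 and 159 with paclitaxel. Its rise was 0.44 ± 0.12 (edgeR adjusted p = 0.0456). Zfp326, a subunit of a complex that couples transcription to splicing, rose by 0.53 ± 0.13 with paclitaxel (edgeR adjusted p = 0.0317), from 30.7 ± 1.82 CPM (SD, n = 3) to 44.5 ± 2.65. The calls of Zfp207 and Zfp326 passed without vehicle library 3 and were each lost in the other 5 of 6 fits that left out 1 library, and the paclitaxel call of Zfp451 was lost without paclitaxel library 2. The combination call of Zfp451 was lost in 2 of 6 such fits.

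Zfp622, a factor in the maturation of the large ribosomal subunit, was the 1 Zfp gene that fell in edgeR. Its levels were 52.5, 39.5 and 45.0 CPM in vehicle, 29.3, 33.2 and 27.9 with MBQ-167, 33.5, 30.0 and 32.6 with paclitaxel, and 39.8, 32.0 and 36.7 with the combination. The vehicle libraries were above those of both single drugs. The log2 fold change was -0.51 ± 0.13 with paclitaxel (edgeR adjusted p = 0.0390) and -0.60 ± 0.13 with MBQ-167 (adjusted p = 0.140). The fall with paclitaxel passed without vehicle library 2 but was lost in the other 5 of 6 fits that left out 1 library. Its transcript GC content, 45.6%, was close to that of Zfp451, 45.8%, which rose. At the third codon position GC content was 70.6% in Zfp622 and 46.6% in Zfp451.

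The other genes chosen for a known role did not pass. Log2 fold changes with paclitaxel were 0.06 ± 0.11 for Zfp91, a ubiquitin ligase, 0.29 ± 0.11 for Zfp148, which binds GC-rich promoters, and 0.38 ± 0.13 for Zfp281, a transcription factor of stem cells. They were 0.02 ± 0.20 for Zfp143, an activator bound at many promoters, -0.09 ± 0.11 for Zfp217, which is amplified in breast cancers, and -0.26 ± 0.11 for Zfp598, the ubiquitin ligase that senses collided ribosomes. Zfp809, the KRAB protein that recognises the primer binding site of murine leukaemia virus, was at 12.4 ± 1.42 CPM (SD, n = 3) in vehicle and 13.8 ± 2.07 with paclitaxel. Among the most abundant genes, Zfp106 had a change of -0.07 ± 0.10, Zfp292 one of 0.17 ± 0.11 and Zfp652 one of 0.31 ± 0.13, none of which passed.

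At the extremes of GC content the values spread. Zfp654, at 35.7% GC, had a change of 0.51 ± 0.17 with paclitaxel that did not pass (edgeR adjusted p = 0.0858). Zfp758, also at 35.7%, was at 4.69, 4.82 and 9.72 CPM in vehicle and at 16, 13.3 and 13 with paclitaxel, a rise of 1.13 ± 0.30 (edgeR adjusted p = 0.0404) that was lost in 5 of 6 fits with 1 library left out, all but that without vehicle library 3. At the other end, Zfp703, which is amplified in luminal breast cancers, was at 62.7, 62.0 and 61.8 CPM in vehicle and at 52.4, 33.3 and 49.1 with paclitaxel, and its change of -0.47 ± 0.17 did not pass (edgeR adjusted p = 0.122). The values of Zfp513 and Zfp628, at 63.0% and 63.5% GC, were -0.50 ± 0.15 and -0.26 ± 0.20 and did not pass either. Zfp513 overlaps Snx17 on the opposite strand.

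Each drug group against vehicle shares the same vehicle libraries, so the values of the other drugs stand side by side with those of paclitaxel. With the combination 12 Zfp genes rose and none fell (edgeR, adjusted p under 0.05), where 1.03% and 0.811% of all genes did; 59 Zfp genes were higher and 11 lower at an unadjusted p under 0.05 (9.54% and 8.81% of all genes), and DESeq2 passed 27 higher and 1 lower (2.80% and 2.77%). The median was 0.15, against 0.00 for all genes, and 58 genes were higher and 17 lower without overlap of the libraries, against 11.0% and 9.86% of all genes. The medians by GC content were 0.46, 0.15 and -0.06 from the lowest to the highest group, with 9, 3 and 0 genes rising. The correlation with GC content was -0.71 and the slope -0.36 per 10 percentage points, against -0.19 for other protein-coding genes. Leaving out combination library 1 or 2 left no Zfp gene passing, and leaving out vehicle library 1, combination library 3 or vehicle library 2 left 1, 3 or 5. Without vehicle library 3, 20 passed.

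With MBQ-167 no Zfp gene passed in edgeR, where 0.0164% of all genes rose and 0.0767% fell. At an unadjusted p under 0.05, 21 Zfp genes were higher and 4 lower (5.82% and 7.05% of all genes). DESeq2 passed 3 of 201 Zfp genes, against 2.56% of all genes with an adjusted p. The libraries did not overlap for 27 that were higher and 6 that were lower, against 8.54% and 8.79% of all genes. The median was 0.04, and 0.13, 0.04 and -0.02 from the lowest to the highest GC group. The correlation with GC content was -0.39, and the slope -0.14 per 10 percentage points was the flattest of the 3 drug groups. With the first GC curve described below the correlation was 0.07 and the median -0.01, and without vehicle library 2 the median was also -0.01. The smallest p-values were those of Zfp622 and Zfp950, whose change of 0.76 ± 0.20 had an edgeR adjusted p of 0.152.

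Drug groups were also compared with each other. No Zfp gene and no other gene (0% of all tested) passed in edgeR when the combination was compared with either single drug. At an unadjusted p under 0.05, 28 Zfp genes were higher and 7 lower in the combination than with MBQ-167 (2.95% and 2.20% of all genes), and 0 were higher and 4 lower than with paclitaxel (1.19% and 1.17%). The libraries did not overlap for 42 higher and 14 lower genes in the first comparison (6.59% and 5.92% of all genes) and for 3 higher and 4 lower in the second (3.45% and 3.82%). In the first of these comparisons the smallest p-values were those of Zfp638, at 0.44 ± 0.11, and Zfp930, at 0.65 ± 0.19. In the second they were those of Zfp994, at -0.47 ± 0.18, and Zfp141, a KRAB gene, at -0.33 ± 0.13. The medians were 0.12 and -0.05 and the correlations with GC content -0.64 and 0.45. DESeq2 passed no Zfp gene in either, and its share of all genes in these comparisons is not given here.

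The interaction asks whether the 2 drugs together differ from the sum of their separate log2 changes, with 0 standing for additive effects. No Zfp gene passed in edgeR, where 0.0438% of all genes were above 0 and 0.0164% below. At an unadjusted p under 0.05, 3 Zfp genes were above and 23 below 0 (4.98% and 4.85% of all genes), and the median was -0.08. The correlation of the interaction with GC content was 0.51. With the first GC curve described below, the correlation was 0.05 and the median 0.00. With the second curve they were 0.19 and -0.07. DESeq2 passed 1 of 201, against 1.14% of all genes. Zfp622 had 0.77 ± 0.19 and Zfp950 had -1.04 ± 0.28, the 2 smallest p-values (edgeR adjusted p = 0.200 and 0.241). When all 4 groups were compared in 1 test, 15 Zfp genes passed, against 1.38% of all genes, with Zfp945, Zfp638, Zfp994 and Zfp160 among them. Without vehicle library 3 the number was 17, and without any other single library it was 2 to 9, the lowest without vehicle library 1.

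Paclitaxel was given both alone and on top of MBQ-167, and these comparisons share no library. The median of the Zfp genes was 0.18 in paclitaxel minus vehicle and 0.12 in combination minus MBQ-167, and 152 of 201 genes (75.6%) had the same sign in both, against 59.2% of all genes. Of the 36 Zfp genes that rose in the first, 34 lay above 0 in the second, or 94.4%, against 82.4% of the 578 genes that rose over the whole table. The correlation of the second comparison with GC content was -0.64. For MBQ-167, alone and on top of paclitaxel, 75 of 201 genes (37.3%) had the same sign, against 43.9% of all genes, and the correlation with GC content was -0.39 in the first and 0.45 in the second.

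**Figure D5:**
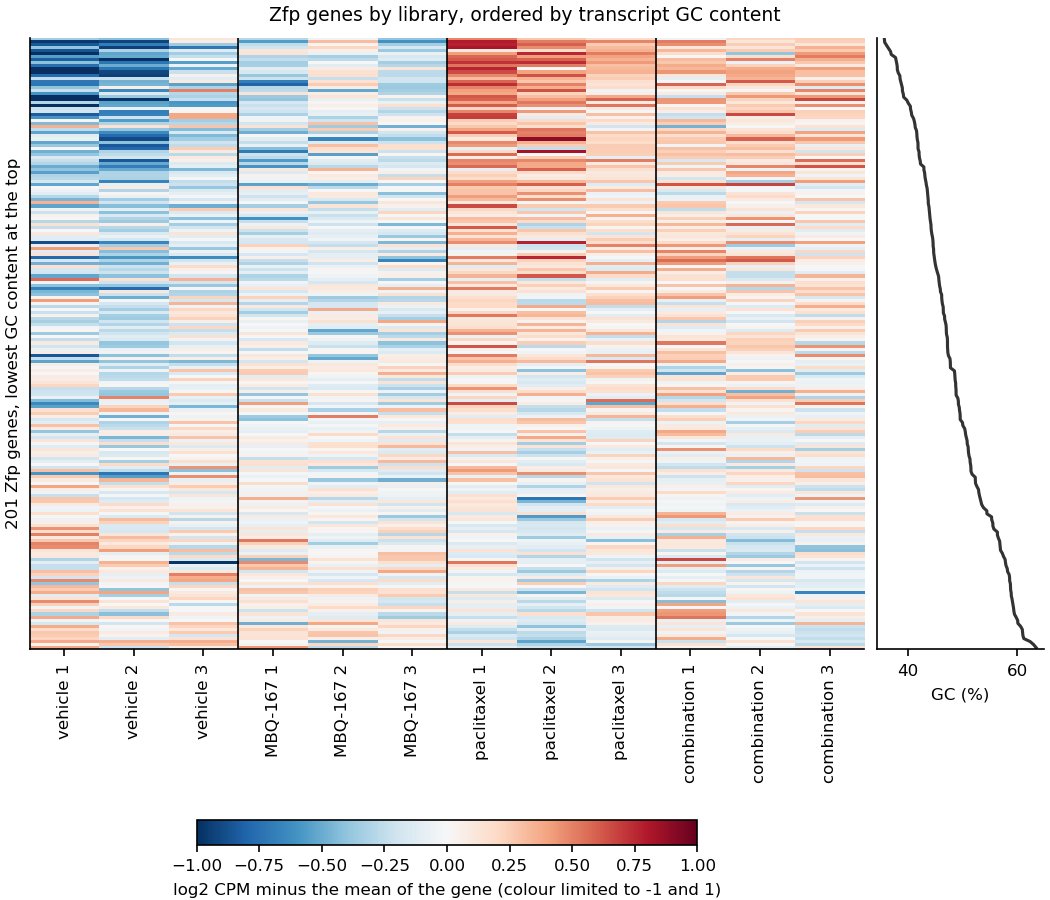
Log2 CPM minus the mean of each gene (colour) for 201 Zfp genes, ordered from the lowest transcript GC content at the top, in 12 libraries; the curve at the right gives GC content in percent. The lowest-GC genes were below their mean in vehicle libraries, with a median of -0.35, -0.41 and -0.14, and above it in paclitaxel libraries, at 0.41, 0.31 and 0.19.

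Gene structure was compared next. Across the Zfp genes, the log2 fold change with paclitaxel had a Spearman correlation of -0.78 with the GC content of the coding sequence and of -0.68 with that of the 3′ untranslated region (196 genes). With the GC content of the promoter, from 250 bases before to 50 after the start in RefSeq, it was -0.37 over the 164 genes with a match. With the third codon position it was -0.76 and with the third position inside linked fingers -0.77 (134 genes). Transcript length had a correlation of 0.09, mean level one of -0.23 and the number of C2H2 motifs one of 0.32. The motif number itself had a correlation of -0.26 with GC content, and these measures overlap.

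The KRAB genes had a median change of 0.41 with paclitaxel and 20 of 74 rose, while the others had 0.06 and 16 of 127 rose. Within the lowest-GC group the medians were 0.69 for 36 KRAB genes and 0.51 for 31 others. Within the middle group they were 0.31 for 30 and 0.15 for 37. Within the highest group they were -0.19 for 8 and -0.08 for 59, so that the order of KRAB and other genes was the opposite there. By motif number the medians were -0.10 for 33 genes with 0 to 4, 0.15 for 61 with 5 to 9, 0.25 for 65 with 10 to 14 and 0.40 for 42 with 15 or more.

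Clusters of neighbouring genes are described without a test between them. The largest cluster, with gaps of at most 500 kb between members, held 15 Zfp genes on chromosome 17 (21008903 to 22867134, GRCm38), from Zfp160 to Zfp945, at a median GC content of 38.5%. All 15 changes with paclitaxel were above 0, from 0.40 to 1.2 with a median of 0.95, and 9 of the genes rose. A cluster of 6 on chromosome 13 (67254918 to 67729173) had a median of 0.79, and 4 rose. A further 6 genes on chromosome 7 (127233061 to 127885996) with a median GC content of 57.9% had a median of -0.05, and none rose. With the first GC correction described below, these medians were 0.33, 0.39 and 0.07. Genes in these clusters are related copies, and how reads that map to several places were counted is not given in the sources used here, so the counts of single cluster genes are uncertain.

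The Zfp genes were compared again after the GC trend of each library was removed. In a first version the curve came from all tested genes with a GC value and left the well expressed protein-coding genes of low GC content with a median of -0.14 with paclitaxel. In a second version, added after the data were seen, the curve came from the other protein-coding genes of 5 CPM or more, which then had a median of -0.03 over that GC range. With the second curve the Zfp medians with paclitaxel were 0.28, 0.19 and 0.06 from the lowest to the highest GC group, and the median over all was 0.17. The correlation with GC content was -0.42 and the slope -0.17 per 10 percentage points, where the other genes, from which the curve was made, had a correlation of 0.01. With the combination the medians were 0.30, 0.14 and 0.07.

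Few single calls were left after correction. With the first curve, 5 Zfp genes rose and 1 fell with paclitaxel (0.729% and 1.18% of all genes), and none changed with the combination (0.0548% and 0.236%). The 5 were Zfp160, Zfp386, Zfp397, Zfp810 and Zfp950, and Zfp622 fell; Zfp386, Zfp397 and Zfp810 are named after their values were seen. With the second curve, 8 rose and 1 fell with paclitaxel (1.02% and 0.762%), and Zfp451 alone rose and none fell with the combination (0.0877% and 0.0931%). In the test of all 4 groups none passed with either curve (0.307% and 0.159% of all genes). Zfp160 kept a change of 0.98 with paclitaxel (edgeR adjusted p = 0.0214), Zfp950 one of 0.95 (0.0290) and Zfp397, at 51.7% transcript GC, one of 0.88 (0.0216). Zfp945 had 0.59 (0.0654) and Zfp758 had 0.54 (0.325), and neither passed. The fall of Zfp622 was -0.60 (0.0387). At the third codon position GC content was only 37.6% in Zfp397 and 34.2% in Zfp160. Across the Zfp genes, the paclitaxel change after the second curve had a Spearman correlation of -0.49 with coding GC content. With transcript GC content it was -0.42. After the first curve these correlations were -0.39 and -0.31. The changes left after correction are therefore not shown to be free of base composition.

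The proteins that KRAB zinc fingers work with were taken as a list of 32 genes, all of which were tested. With paclitaxel 3 of them rose and 0 fell, against 3.17% and 2.49% of all genes, and the median was 0.03. With the combination 1 of 32 rose, against 1.03%, which is a difference of less than 1 gene. Those were Fam208a, the core HUSH subunit, at 1.08 ± 0.13 (edgeR adjusted p = 0.00198), the chromatin remodellers Smarcad1 at 0.57 ± 0.13 (0.0201) and Atrx at 0.65 ± 0.17 (0.0369), and Fam208a again in the combination at 0.73 ± 0.13 (0.02). Their GC contents were 35.8%, 43.6% and 41.9%, and none passed with either GC correction. Trim28, at 53.8% GC, had a change of -0.12 ± 0.16 and Setdb1, at 48.6%, one of 0.16 ± 0.10.

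Other zinc finger families were set beside the 201 genes. The 111 tested Zfp genes under 5 CPM had a median of 0.37 with paclitaxel, and 10 rose, where 3.17% of all genes rose and 2.49% fell. The 33 Zbtb genes had 0.08 with 1 rising, the 18 Zscan and Zkscan genes -0.02 with 2 rising, and the 16 Zc3h genes 0.12 with none. The 20 Klf and Sp genes had -0.17 with 4 falling. The correlation of the change with GC content was -0.62, -0.62, -0.69, -0.63 and -0.26 in these families in the order given. With the first GC curve these correlations were -0.24, 0.08, -0.43, 0.06 and -0.01, so that those of the Zbtb and Zc3h genes changed sign.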

How the data were processed

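RNA was measured in 12 tumour libraries. The authors deposited 1 table of raw counts. HISAT2, HTSeq, DESeq2 and GRCm38 are named in the submitters' processing notes; for their versions, the annotation, strandedness and multi-mapping reads, nothing is stated (not given in the sources used here). Of 46078 identifiers, 45229 matched GENCODE vM21, which gave symbols, coordinates, transcripts and GC content.

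Genes passing filterByExpr (minimum count 10) were fitted over all 12 libraries with edgeR 4.0.16 (R 4.3.3, TMM scaling, quasi-likelihood test; biological coefficient of variation 0.214) and adjusted by Benjamini-Hochberg over 18252 genes. The GC corrections were offsets per library from a spline with 5 degrees of freedom. Alternatives were DESeq2 1.42.0, RLE size factors, other filters, protein-coding genes only, other minimum levels, the replicate number as a block, each library left out, and, added after seeing the data, the second GC curve and a neutrophil covariate. The fits were tested on simulated data. Replicate numbers met the criterion for pairing, every correlation of deviations over 0.1, between vehicle and combination but between no other groups, so the block was kept as an alternative.

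The genes, lists and tests were chosen with earlier results of these data known. Named genes are the 4 smallest p-values per direction among those passing in each comparison (2 in either direction where none passed), the 3 highest and 3 lowest in GC content, the 5 highest in CPM, the 3 on each side of the threshold and 13 fixed for their roles. Partner genes were named where they passed; Trim28 and Setdb1 were added after values were seen. Genes whose fingers are printed were taken by GC content. Cell type lists were used as summed CPM, and single neutrophil markers were named only for their mean level.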

Additional observations from a re-analysis of the deposited data

How the results depend on the processing

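The correlation of GC content with the change under MBQ-167 turned from -0.39 to 0.073 with the GC curve of all genes and was -0.14 with the second curve. That first curve moved the correlation to -0.31 for paclitaxel and -0.23 for the combination, the median to 0.093 and 0.062, and the number of Zfp genes passing to 6 and 0; the second moved the correlations to -0.42 and -0.38 and the numbers to 9 and 1. In the test of all 4 groups 0 passed with either. With the neutrophil covariate the medians were 0.37 for paclitaxel, 0.30 for the combination and 0.14 for MBQ-167. In that fit 10 passed with paclitaxel, 1 with the combination and 0 over the 4 groups, and the shares of all genes are not given. The neutrophil sum separated all vehicle from all drug libraries, so its part and that of the drugs cannot be told apart. DESeq2 passed 3 with MBQ-167 (2.56% of all genes), 28 with the combination, 1 in the interaction (1.14%) and 38 over the 4 groups (7.42%), and no filter on low counts gave 2 with MBQ-167 (1.27%) and 29 over the 4 groups (3.72%). The MBQ-167 and interaction counts, out of 201, were not above the share of all genes. The median was 0.10 for the combination with a minimum of 10 CPM and 0.24 for paclitaxel with 1 CPM. The cause of these shifts was not tested. Leaving out 1 library gave 12 to 38 passing with paclitaxel, 0 to 20 with the combination and 2 to 17 over the 4 groups. Medians then ran from 0.15 to 0.24, 0.10 to 0.19 and -0.01 to 0.09 for paclitaxel, the combination and MBQ-167, and correlations from -0.78 to -0.74, -0.73 to -0.66 and -0.49 to -0.27. Of 18 calls on named genes, DESeq2, RLE size factors, no filter, the stricter filter and protein-coding genes only each kept 18, the first GC curve 3, the second 6 and the neutrophil covariate 5. Without vehicle library 1, 2 or 3 they were 8, 14 and 17 of 18. Of 12 paclitaxel calls 7, 6 and 8 were kept without paclitaxel library 1, 2 or 3, and of 6 combination calls 0, 0 and 3 without combination library 1, 2 or 3.

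Replicate numbers are shared across groups, and 7 of 18 same-numbered pairs had deviations with a correlation over 0.1, from -0.17 to 0.25, against 8 of 36 pairs of different number. All 3 pairs of vehicle and combination were over 0.1 (0.11, 0.22 and 0.19), and for no other 2 groups were all 3. With the replicate block 37 Zfp genes passed with paclitaxel, 10 with the combination, 10 over the 4 groups and 0 with MBQ-167, and among calls on named genes only that of Zfp758 changed (edgeR adjusted p = 0.0503). The shares of all genes passing with the block are not given here, so these counts cannot be read as particular to the Zfp genes. The SE of the paclitaxel change among genes described ranged from 0.10 for Zfp106, at a mean of 204 CPM, to 0.30 for Zfp758, at 10.2 CPM.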
